A study of Arabidopsis thaliana with 18 samples.

Results

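The chloroplast chromosome of Arabidopsis thaliana carries the genes described here: the subunits of photosystem I and photosystem II (symbols starting psa and psb), of the cytochrome b6f complex (pet) and of the ATP synthase (atp), with rbcL, the large subunit of the carbon-fixing enzyme Rubisco. A gene was a member when it lay on the plastid chromosome of the RefSeq gene table, had one of these symbols and was the only gene named for its probe set. All 33 plastid genes of this kind in the gene table were measured, each by 1 probe set, among 69 plastid genes, 13286 genes of any genome with a probe set of their own and 22746 probe sets in all. They comprise 5 genes of photosystem I, 15 of photosystem II, 6 of cytochrome b6f, 6 of ATP synthase and 1 of Rubisco.

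In the light reactions, photosystem II takes electrons from water, the cytochrome b6f complex passes them on and pumps protons, photosystem I raises their energy again, and the ATP synthase makes ATP from the proton gradient. Each complex is a patchwork of subunits encoded in the plastid and subunits encoded in the nucleus, so that bacterial-type ribosomes inside the chloroplast and ribosomes of the cytosol supply parts of the same machine. Most plastid genes are transcribed together with their neighbours as operon-like units and are then cut into smaller RNAs, and their output is known to be set to a large extent at translation. GCN2 is a protein kinase that phosphorylates the translation initiation factor eIF2 alpha of the cytosol, a factor that plastid ribosomes do not use.

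The study compared wild-type and gcn2 mutant seedlings of the line Landsberg erecta in their transcript levels and in the distribution of transcripts over sucrose gradients. Seedlings were 10 days old, grew at 22 °C on GM medium, which held 1% sucrose and was set with 0.8% agar, under 16 h of light per day at about 80 umol per square metre and second, and were frozen 4 h after lights on; only the aerial part was used. From each gradient the 6 top fractions were pooled as non-polysomal RNA and the 6 bottom fractions as polysomal RNA, and total RNA was measured as well. The 6 groups were wild-type total, gcn2 total, wild-type polysomal, gcn2 polysomal, wild-type non-polysomal and gcn2 non-polysomal RNA, with 3 Affymetrix ATH1 arrays each, 18 in all. The labels used here name no allele of gcn2 and do not say whether replicates came from separate cultures, so the p-values below measure the spread between these arrays. Transcripts of GCN2 itself were not analysed here, because no probe set was matched to that gene alone, and the genotype of each array rests on its label.

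The values are the deposited log2 signals, which had been brought to a common scale per array: array medians lay between 5.05 and 5.18. A difference between fractions is therefore relative to the bulk of the array, and lower signal cannot be told apart as fewer chloroplasts or cells against less RNA per chloroplast or cell. Signals of different genes come from different probes, so levels are compared between arrays and never between genes. Of the light-harvesting genes that mark green tissue, 3 of 13 listed were measured, and LHCB4.1 lay between 12.5 and 13.2 on the 18 arrays, LHCB4.2 between 10.6 and 11.6 and LHCB4.3 between 6.28 and 9.54. Of the root markers 3 of 8 were measured: the root hair genes EXPA7 and EXPA18 lay between 3.38 and 4.88, and PYK10, a beta-glucosidase abundant in roots, between 7.88 and 11.1. None of these 3 fell below the lower quartile of its array, and their part in the results was not tested. The mean difference between 3′ and 5′ control probe sets, a sign of shorter or partly degraded RNA, was 2.13 ± 0.159 (SD, n = 3) for polysomal and 2.59 ± 0.327 for non-polysomal RNA of wild type, on the log2 scale. For gcn2 it was 2.28 ± 0.346 and 2.92 ± 0.428, and for total RNA 1.30 ± 0.0866 in wild type and 1.32 ± 0.115 in gcn2. The group mean was higher in the non-polysomal fraction of both genotypes. In wild-type replicate 3 the order was reversed, with 2.31 for polysomal and 2.28 for non-polysomal RNA. The part of this measure in the differences between fractions was not tested.

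The plastid photosynthesis genes differed by several log2 units between arrays of the same group, and they did so by replicate number. The median signal of the 33 genes in wild-type polysomal RNA was 7.45, 9.76 and 10.7 on replicates 1, 2 and 3, and the non-polysomal medians were 9.34, 10.6 and 11.5. In the gcn2 polysomal fraction the medians were 6.71, 8.84 and 10.7, and in the gcn2 non-polysomal fraction 8.13, 11.2 and 11.8. Arrays numbered 3 were the highest and arrays numbered 1 the lowest in all 4 fraction groups. Wild-type total RNA followed the same order with 6.48, 8.66 and 10.9, whereas in gcn2 total RNA replicate 1 at 8.83 stood above replicate 2 at 7.69, with replicate 3 at 10.1.

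**Figure D1:**
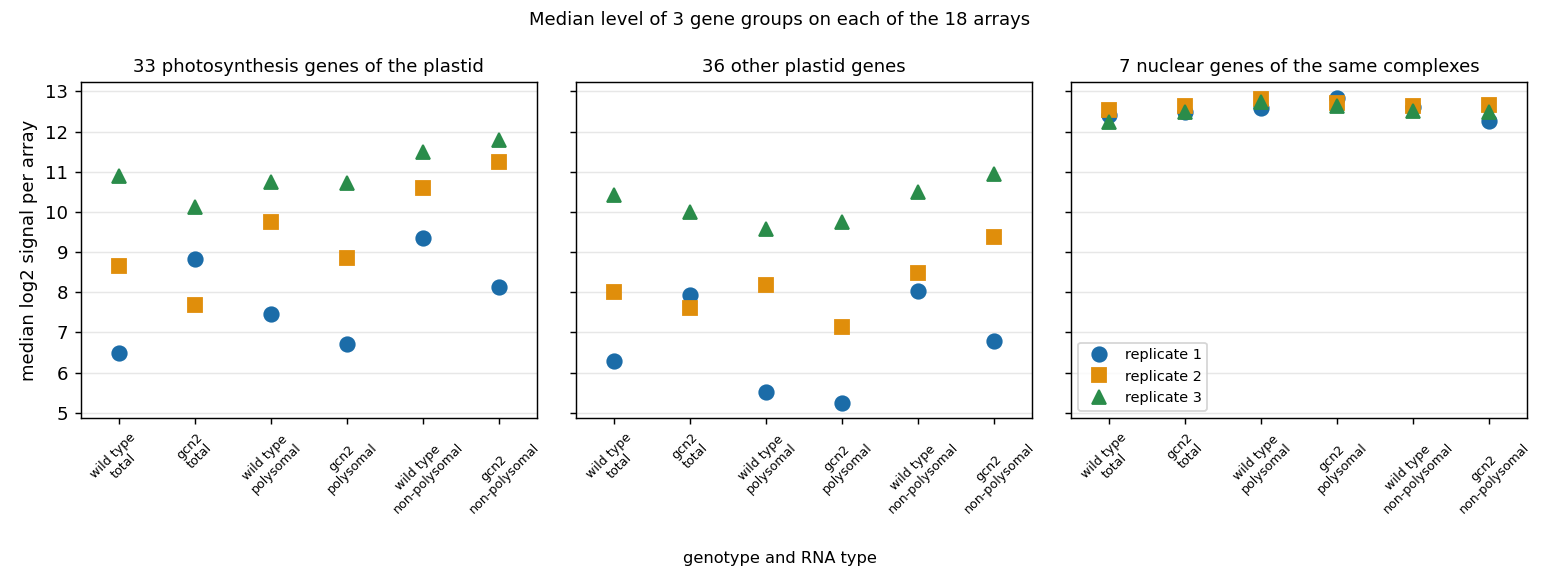
Median log2 signal (vertical axis) of the 33 plastid photosynthesis genes, the 36 other plastid genes and 7 nuclear genes of the same complexes on each array, by genotype and RNA type (horizontal axis); each point is 1 array and its shape and colour give the replicate number. Both plastid groups spread over several log2 units within each group of arrays and are highest in replicate 3, while the nuclear genes stay between 12.2 and 12.8.

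A limma test of the replicate number over the 12 fraction arrays, added after the data were seen, found a difference for 31 of the 33 genes at an adjusted p under 0.05, against 11.8% of all probe sets. The median difference between replicates 3 and 1 was 3.07 on the log2 scale, from 0.29 for psbM to 5.02 for psbB, which encodes the CP47 antenna protein of photosystem II. Of the 36 other plastid genes, 35 passed the same test, with a median difference of 2.77. Of 7 measured nuclear genes that encode subunits of the same complexes or the Rubisco activase RCA, 0 passed at an adjusted p under 0.05 and 1 at an unadjusted p under 0.05, and their median difference between replicates 3 and 1 was -0.08. For single plastid genes the range over all 18 arrays ran from 1.08 to 7.88 log2 units, with a median of 5.59. The labels say nothing of what the replicate number stands for, and the source of this spread was not tested.

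Because of this spread, each fraction comparison is given first without and then with the replicate number as a block. The 4 fraction groups moved together by number over all probe sets: correlations of same-numbered arrays' deviations from their group means were between 0.184 and 0.588 in all 6 pairs of groups. The gcn2 total arrays did not follow, with correlations from -0.168 to 0.346 with the fraction groups. Those of the wild-type total arrays ran from 0.00117 to 0.404. The blocked fit used here therefore holds the 12 fraction arrays only. The polysomal and the non-polysomal array of one genotype and number are called a gradient below, although the labels do not state that they came from 1 gradient.

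Most plastid photosynthesis transcripts were less abundant in the polysomal than in the non-polysomal fraction relative to the rest of the array, in both genotypes. The difference, polysomal minus non-polysomal log2 signal, is called loading here. In wild type it was negative for 28 of 33 genes with a median of -1.01, against a median of -0.07 over all probe sets, and in gcn2 for 29 of 33 with a median of -1.45, against -0.04. Without the block, 2 genes fell in wild type, psbM and psbN, and 0 rose at an adjusted p under 0.05, where 28.5% of all probe sets passed, 13.3% by falling and 15.2% by rising. In gcn2 3 fell, psbM, petL and psbJ, and 0 rose, where again 28.5% of all probe sets passed, 13.4% by falling and 15.1% by rising. At an unadjusted p under 0.05, 5 and 8 members passed in wild type and gcn2, where 39.2% and 37.4% of all probe sets did. These counts lie below the background, and standard errors of single members reached 1.76 with a median of 1.13.

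With the replicate block, 21 genes fell and 3 rose in wild type, where 17.9% of all probe sets fell and 19% rose, and 25 fell and 1 rose in gcn2, where 17.2% fell and 18.7% rose. The median standard error of a member dropped to 0.303. The same 21 genes fell in both genotypes: psaC, psaI and psaJ of photosystem I; psbA, psbE, psbF, psbH, psbJ, psbL, psbM, psbN and psbZ of photosystem II; all 6 cytochrome b6f genes; atpF and atpH of ATP synthase; and rbcL. In this fit only psaA rose in both genotypes. The shares of all probe sets that fell or rose in both were not counted. Counted by gradient, with no model, 20 of 33 genes had lower polysomal signal in 6 of 6 gradients, where 20.5% of all probe sets did, and 2 genes, psaA and atpI, had higher polysomal signal in 6 of 6, where 20.8% did.

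**Figure D2:**
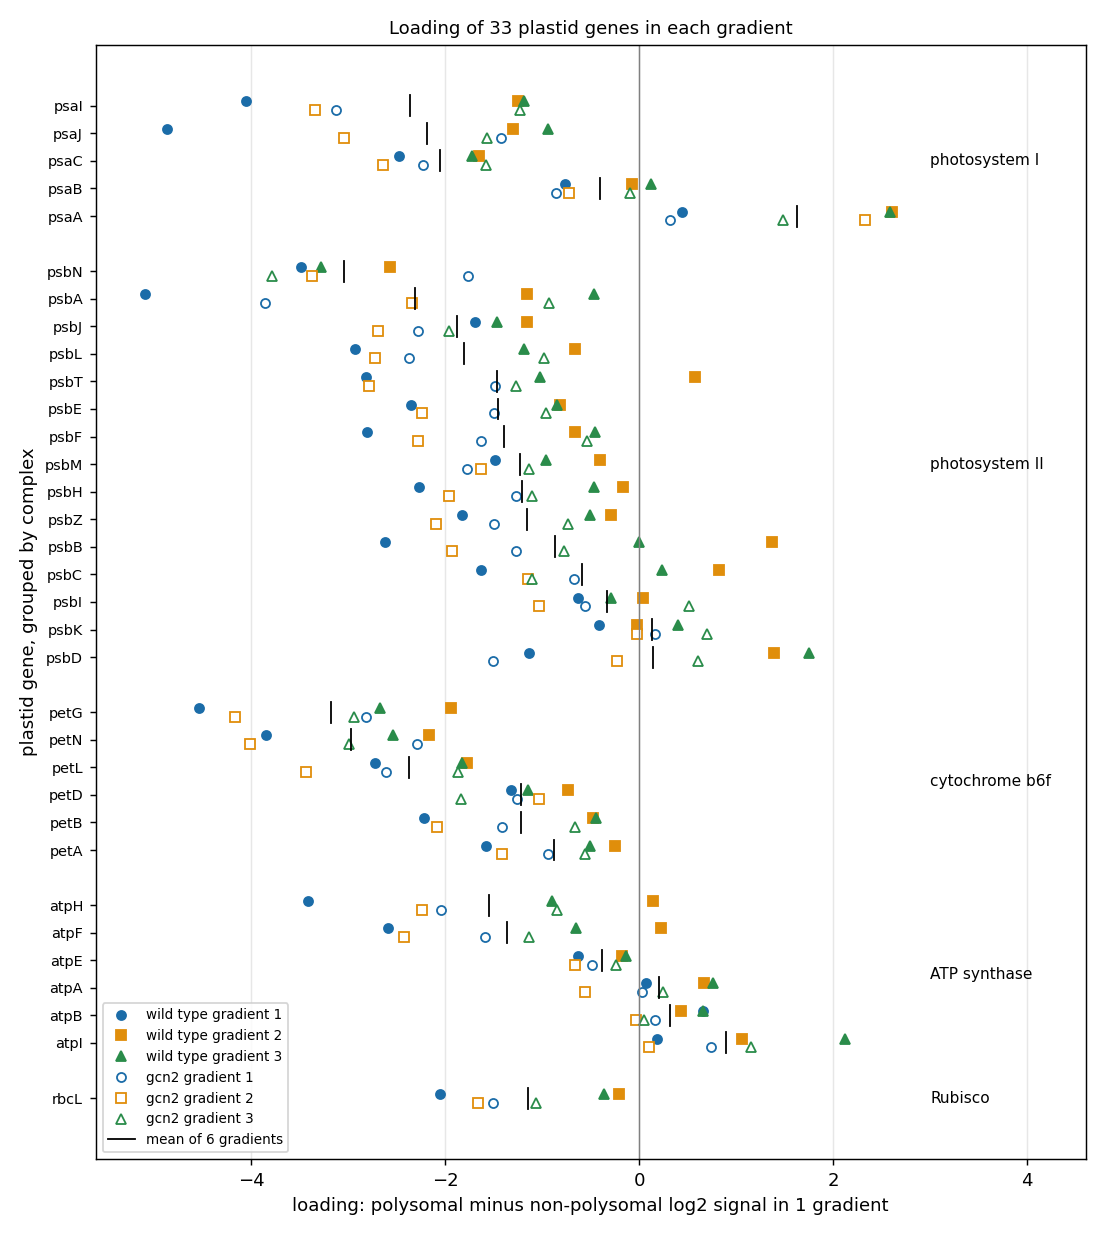
Loading (horizontal axis, polysomal minus non-polysomal log2 signal) of the 33 genes in each of the 6 gradients, with genes grouped by complex on the vertical axis; each symbol is 1 gradient and the short black bar the mean of 6. All 6 cytochrome b6f genes lie left of zero in every gradient, psaA and atpI lie right of it in every gradient, and wild-type gradient 1 is the leftmost point for many genes.

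The gradients differed among themselves. The median loading of the 33 genes was -2.21, -0.25 and -0.50 in wild-type gradients 1, 2 and 3, and -1.49, -2.09 and -0.96 in gcn2 gradients 1, 2 and 3. Without wild-type polysomal replicate 1 the wild-type median was -0.08, and with it -1.01. Over the alternatives that left out 1 array at a time the wild-type median stayed negative, from -1.84 to -0.08, and so did that of gcn2, from -2.63 to -0.42.

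Within photosystem I the 2 large subunits parted from the 3 small ones. The protein PsaA forms, with PsaB, the core that binds the reaction centre chlorophylls. Its transcript psaA had polysomal signals of 5.51, 7.16 and 7.85 in wild type against non-polysomal signals of 5.07, 4.55 and 5.26, and in gcn2 4.82, 7.28 and 7.20 against 4.50, 4.95 and 5.71. The wild-type fractions did not overlap, the gcn2 fractions did, and in every gradient the polysomal array was the higher one. The loading of psaA was 1.88 ± 0.892 (SE, limma adjusted p = 0.127) in wild type and 1.38 ± 0.892 (adjusted p = 0.284) in gcn2 without the block, and passed in both with it, at adjusted p values of 0.000596 and 0.00635. Over all fits the adjusted p of its wild-type loading ran from 9.62e-07 to 0.876, and that of its gcn2 loading from 9.17e-07 to 0.658. Its neighbour psaB stayed near zero, with a loading of -0.24 ± 0.603 (SE) in wild type and -0.56 ± 0.603 in gcn2; with the block it fell in gcn2 (adjusted p = 0.0173).

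The transcript psaC, for the subunit that holds the terminal iron-sulfur clusters, went the other way. Its polysomal signals were 6.86, 9.06 and 9.77 in wild type and 6.11, 8.65 and 10.1 in gcn2, and its non-polysomal signals 9.34, 10.7 and 11.5 in wild type and 8.33, 11.3 and 11.7 in gcn2. The fractions overlapped as groups, but in each gradient the polysomal array was lower, by between 1.58 and 2.64 log2 units. Loading was -1.95 ± 1.06 (SE, adjusted p = 0.185) and -2.15 ± 1.06 (adjusted p = 0.150) without the block, and fell in both genotypes with it, with a standard error of 0.254. The small hydrophobic subunits psaI and psaJ had mean loadings of -2.36 ± 1.29 and -2.19 ± 1.50 (SD, 6 gradients).

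In photosystem II the clearest case was psbM, for a small subunit at the interface of the dimer. Its polysomal signals were 12.4, 13.3 and 13.0 in wild type and 12.3, 12.5 and 12.8 in gcn2, and its non-polysomal signals 13.9, 13.7 and 14.0 and 14.1, 14.1 and 14.0. The fractions did not overlap in either genotype, and psbM was 1 of the 2 members whose level did not pass the test of the replicate number. It fell by 0.95 ± 0.275 (SE, limma adjusted p = 0.0140) in wild type and by 1.51 ± 0.275 (adjusted p = 0.000378) in gcn2. Its non-polysomal signals lay close to the highest signals on these arrays, 14.0 to 14.3, where a probe set has little room to rise.

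The largest fall in photosystem II was that of psbN, whose product is known from tobacco as an assembly factor of the complex. It had wild-type polysomal signals of 4.46, 6.35 and 7.47 and non-polysomal signals of 7.95, 8.92 and 10.7, with no overlap. In gcn2 the polysomal signals were 4.69, 5.18 and 7.04 and the non-polysomal signals 6.45, 8.55 and 10.8, with overlap. The loading was -3.11 ± 1.13 (SE, adjusted p = 0.0466) in wild type, an 8.64-fold lower polysomal signal, and -2.97 ± 1.13 (adjusted p = 0.0569) in gcn2; with the block it fell in both, and its adjusted p over all fits ranged between 2.40e-07 and 0.876 for wild type and between 3.70e-07 and 0.658 for gcn2.

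A low molecular weight subunit, psbJ, fell in gcn2. Its gcn2 polysomal signals were 7.56, 8.91 and 9.52 against non-polysomal signals of 9.84, 11.6 and 11.5, which did not overlap, and its loading was -2.31 ± 0.746 (SE, adjusted p = 0.0256). In wild type the polysomal signals of 8.20, 10.1 and 10.2 overlapped with the non-polysomal signals of 9.90, 11.2 and 11.7, and the loading of -1.44 ± 0.746 (adjusted p = 0.163) did not pass without the block and did with it.

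The reaction centre genes of photosystem II differed from each other. psbA, which encodes the D1 protein that is replaced continually in the light, had wild-type polysomal signals of 8.54, 12.5 and 13.3 and non-polysomal signals of 13.6, 13.7 and 13.7. Its loading therefore ran from -5.09 in wild-type gradient 1 to -0.46 in gradient 3, and in gcn2 it was -3.86, -2.34 and -0.93. The non-polysomal signals of psbA lay near the top of the signal range in 5 of these 6 gradients, where, as for psbM, a probe set has little room to rise. psbD, for the partner protein D2, had loadings of -1.13, 1.39 and 1.75 in the wild-type gradients and -1.51, -0.23 and 0.61 in gcn2, with a mean of 0.14 ± 1.33 (SD, 6 gradients). The antenna proteins CP47 and CP43, encoded by psbB and psbC, had mean loadings of -0.87 ± 1.42 and -0.58 ± 0.933. The genes psbE and psbF, which encode the subunits of cytochrome b559, were lower in polysomal RNA in 6 of 6 gradients, with means of -1.45 ± 0.697 and -1.39 ± 0.998. psbK and psbI, for small core subunits, stayed near zero, at 0.14 ± 0.384 and -0.33 ± 0.546.

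Every plastid gene of the cytochrome b6f complex had lower polysomal signal in all 6 gradients. The 3 small subunits stood lowest. petL had polysomal signals of 7.75, 9.58 and 10.1 in wild type and 7.61, 8.43 and 9.92 in gcn2, and non-polysomal signals of 10.5, 11.4 and 11.9 and 10.2, 11.9 and 11.8, with no overlap in either genotype. Its loading was -2.11 ± 0.818 (SE, adjusted p = 0.0622) in wild type and -2.64 ± 0.818 (adjusted p = 0.0203) in gcn2, a 6.22-fold lower polysomal signal. petN had polysomal signals of 4.59, 5.83 and 8.47 in wild type and 4.63, 5.21 and 8.02 in gcn2, and non-polysomal signals of 8.43, 7.99 and 11.0 and 6.92, 9.22 and 11.0. The fractions overlapped, and the loading of -2.85 ± 1.16 (SE, adjusted p = 0.0767) and -3.09 ± 1.16 (adjusted p = 0.0547) did not pass without the block and fell in both genotypes with it.

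The lowest mean loading of all 33 genes was that of petG, at -3.18 ± 0.977 (SD, 6 gradients). Its signal lay below the lower quartile of the array on 6 of the 18 arrays, the total RNA arrays of replicates 1 and 2 and, with 3.17 and 2.90, the polysomal arrays of replicate 1 in wild type and gcn2. The loading in gradient 1 of either genotype therefore rests on a dim polysomal value. petA, for cytochrome f, petB, for cytochrome b6, and petD, for subunit IV, had mean loadings of -0.87 ± 0.531, -1.22 ± 0.805 and -1.22 ± 0.368. petD was dim as well, below the lower quartile on 5 arrays.

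**Figure D3:**
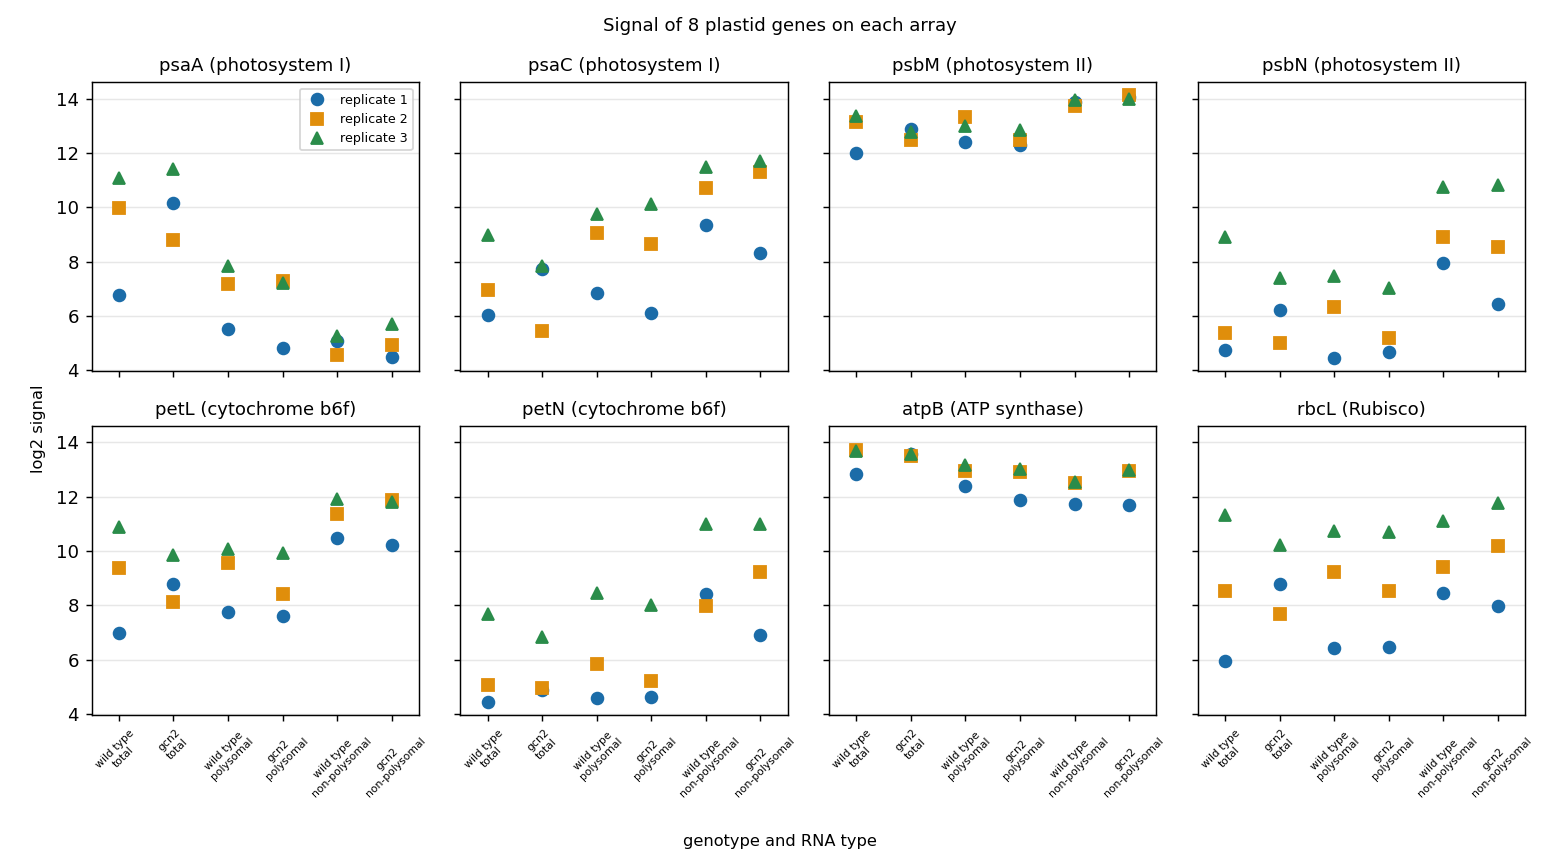
Log2 signal (vertical axis) of psaA, psaC, psbM, psbN, petL, petN, atpB and rbcL on each of the 18 arrays, by genotype and RNA type (horizontal axis); each point is 1 array and its shape and colour give the replicate number. The mean signal of psaA is highest in total RNA and lowest in the non-polysomal fraction, that of psbN, petL and petN is highest in the non-polysomal fraction, and atpB and psbM keep within about 2 log2 units.

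The ATP synthase genes had the highest median of mean loadings, -0.09, against -2.05 for photosystem I, -1.23 for photosystem II and -1.80 for cytochrome b6f. rbcL, the only Rubisco gene, was at -1.14. This order of complexes is a description, since each median rests on few genes. Single ATP synthase genes ran from -1.55 for atpH to 0.89 for atpI. That range lies inside the range of photosystem I, from -2.36 for psaI to 1.63 for psaA. atpB, for the catalytic beta subunit, had polysomal signals of 12.4, 12.9 and 13.2 in wild type and 11.9, 12.9 and 13.0 in gcn2, and non-polysomal signals of 11.7, 12.5 and 12.5 and 11.7, 13.0 and 13.0. Its loading was 0.58 ± 0.353 (SE, adjusted p = 0.236) in wild type, where it rose with the block (adjusted p = 0.00317), and 0.06 ± 0.353 in gcn2, where it did not pass with the block either (adjusted p = 0.788). Its adjusted p over all fits lay between 0.00202 and 0.876 for wild type and between 0.0129 and 0.969 for gcn2. atpE, for the epsilon subunit, had a loading of -0.31 ± 0.206 (SE) in wild type and -0.46 ± 0.206 in gcn2, and its signals of 13.2 to 14.3 reached the highest signal measured on any array.

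The subunits of the membrane sector did not move as 1 group. atpI, for subunit a, had higher polysomal signal in all 6 gradients, by between 0.10 and 2.12 log2 units, with signals of 2.89 to 7.40 and a value below the array's lower quartile on 1 array, gcn2 non-polysomal replicate 1. atpH, for the ring-forming subunit c, and atpF, for subunit b, were lower in 5 of 6 gradients, with means of -1.55 ± 1.27 and -1.36 ± 1.07 (SD). atpA, for the alpha subunit, was at 0.20 ± 0.480.

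rbcL had polysomal signals of 6.42, 9.21 and 10.7 in wild type and 6.48, 8.53 and 10.7 in gcn2, and non-polysomal signals of 8.47, 9.42 and 11.1 and 7.99, 10.2 and 11.8. The fractions overlapped, and in each gradient the polysomal array was lower, by between 0.20 and 2.05 log2 units. Its loading of -0.87 ± 1.32 (SE, adjusted p = 0.663) in wild type and -1.41 ± 1.32 (adjusted p = 0.484) in gcn2 did not pass, and with the block it fell in both, at adjusted p values of 0.0127 and 0.000304. Over all fits these lay between 0.0127 and 0.996 and between 0.000304 and 0.925.

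The low loading was shared by the rest of the plastid genome. Of the 36 other plastid genes, 24 had lower polysomal signal in 6 of 6 gradients and 0 higher, where 20.5% and 20.8% of all probe sets did. The median loadings of the 36 genes were -0.83 in wild type and -1.46 in gcn2. Without the block 3 of the 36 fell in wild type and 8 in gcn2, where 13.3% and 13.4% of all probe sets fell. With the block 22 fell and 1 rose in wild type, where 17.9% of all probe sets fell and 19% rose. In gcn2 28 fell with the block, where 17.2% of all probe sets did. Most of the nuclear genes of the same complexes that were measured had positive loading. Of 35 listed, 7 were measured, and 5 rose in both genotypes: PSBY, PSAN and PSAE-1 of the photosystems, ATPC1, the gamma subunit of ATP synthase, and RCA. Of all probe sets 15.2% rose in wild type and 15.1% in gcn2 in this fit without the block. The share that rose in both was not counted. PSBY had the largest loading, 1.35 ± 0.147 (SE, adjusted p = 2.25e-06) in wild type and 1.46 ± 0.147 (adjusted p = 9.86e-07) in gcn2. PSBW passed in neither genotype, and AT2G26500, the petM subunit of cytochrome b6f, fell in wild type by 0.60 ± 0.142 (adjusted p = 0.00336) and had a loading of -0.31 ± 0.142 (adjusted p = 0.115) in gcn2. The median loading of the 7 nuclear genes was 0.65 in wild type and 0.64 in gcn2; AT2G26500 was negative like the plastid genes of its complex.

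A fit added after the data were seen took the median of the 36 other plastid genes on each array as a covariate. A slope on it was fitted for each gene, so the values are differences at an equal median, not differences from those genes. With the covariate 8 of the 33 genes rose and 6 fell in wild type, where 15.8% of all probe sets rose and 14.1% fell. In gcn2 6 rose and 8 fell, where 15% rose and 13.7% fell. atpA, atpI, psaA, psbB and psbC rose in both genotypes, and petG, petL, petN, psbM and psbN fell in both. The shares of all probe sets called in both genotypes in this fit were not counted. Such a call need not set a gene apart from the other plastid genes. psbM had loadings of -0.95 and -1.51 without the covariate, and their medians were -0.83 and -1.46. psaA had the largest rise, 2.59 ± 0.524 (SE) in wild type and 2.34 ± 0.535 in gcn2. The calls of 2 genes changed sides between the fits: atpF in wild type fell by 1.01 with the block and rose by 0.44 with the covariate, and psbB in gcn2 fell by 1.32 with the block and rose by 0.96 with the covariate. psbN had a difference of -2.07 ± 0.383 in wild type and -1.57 ± 0.391 in gcn2. The median over the members was -0.12 in wild type and 0.08 in gcn2 with the covariate. Without it the medians were -1.01 and -1.45, near those of the other plastid genes.

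The scale of the whole array also mattered. The bacterial controls BioB and BioC, labelled RNAs that are added to the hybridization mix, averaged 8.92 on the polysomal and 9.68 on the non-polysomal arrays of wild type, and 9.15 and 9.83 on those of gcn2. Centring each array on them moved the median over all probe sets from -0.07 to 0.69 (wild type) and from -0.04 to 0.65 (gcn2), and turned the split of all calls in wild type from 3468 higher and 3022 lower into 12970 higher and 262 lower, and in gcn2 from 3443 and 3049 into 11443 and 323. Under that scale 3 members rose and 4 fell in wild type, where 57% of all probe sets rose and 1.15% fell, and 2 rose and 6 fell in gcn2, where 50.3% rose and 1.42% fell. The median loading of the members was -0.24 in wild type and -0.76 in gcn2, below that of all probe sets under this scale too.

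Among the members, low loading went with short genes. The 18 genes shorter than 300 bases, from 90 to 252 bases in the RefSeq gene table, had a median loading of -1.68, and 14 of them were lower in 6 of 6 gradients. The 15 longer genes, from 399 to 2253 bases, had a median of -0.58, with 6 lower and 2 higher in 6 of 6. Of all probe sets, 20.5% were lower and 20.8% higher in 6 of 6 gradients. Across the 33 genes the Spearman correlation of length with mean loading was 0.63, and 0.49 to 0.69 within single gradients. Genes are not independent replicates: members share arrays and many share a precursor RNA, and the limit of 300 bases was chosen after the data were seen.

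**Figure D4:**
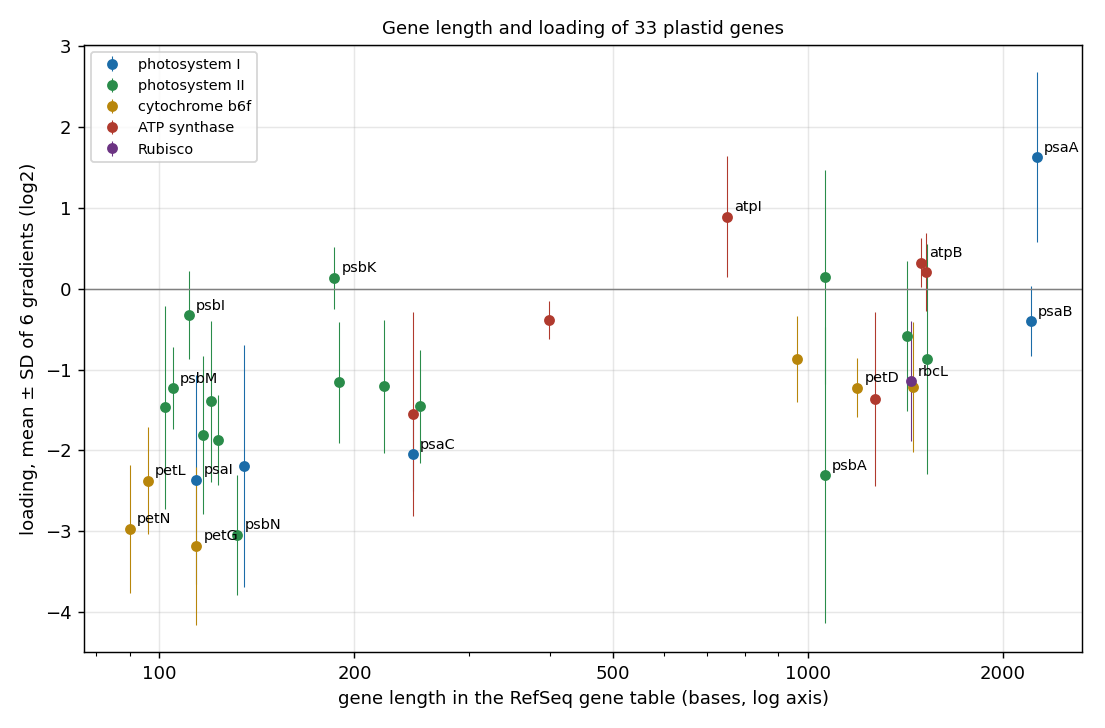
Mean loading over the 6 gradients (vertical axis, log2, bars 1 SD) against gene length in bases (horizontal log axis) for the 33 genes, coloured by complex. Genes under 300 bases lie between -3.18 and 0.14, and psbK, psbI and psbA stand apart from the trend.

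The relation had exceptions. psbK with 186 bases and psbI with 111 bases had loadings near zero, whereas psbA with 1062 bases was at -2.30 ± 1.83 (SD, 6 gradients). The lengths of atpF, petB and petD include a group II intron. Among the 36 other plastid genes the same correlation was -0.06, and their 5 short genes had a median of -0.72 against -1.20 for the 31 longer ones, so the relation with length was not seen there. The difference between the 2 correlations was not tested.

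Genes known from the literature to be transcribed together were alike in some units and not in others. The list of units used here, which may not be complete, places 24 of the members in 8 units of at least 2 members. In that list psaI, psaJ and petA were treated as single genes. The 4 genes of psbE-psbF-psbL-psbJ lay between -1.88 and -1.39 in mean loading, and the 5 genes of psbB-psbT-psbH-petB-petD between -1.47 and -0.87; in that unit psbT lay below the array's lower quartile on 4 arrays and petD on 5. psbN, which lies between psbT and psbH on the other strand, was at -3.04 ± 0.744 (SD, 6 gradients), outside that range. petL and petG lay at -2.37 and -3.18. By contrast psaA and psaB, which share a precursor, were 2.03 log2 units apart, and the genes of atpI-atpH-atpF-atpA ran from -1.55 to 0.89.

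Total RNA did not always lie between the fractions. In wild type the mean total signal was above both fraction means for 4 of 33 genes, between them for 9 and below both for 20, and in gcn2 the counts were 9, 16 and 8. Over all probe sets 29.3% lay above and 39.1% below in wild type, and 28.2% and 41.8% in gcn2. psaA was the clearest case above both: its total signals were 6.76, 9.97 and 11.1 in wild type and 10.2, 8.81 and 11.4 in gcn2. In wild type the mean of 9.27 ± 2.24 (SD, n = 3) stood over 6.84 ± 1.20 in polysomal and 4.96 ± 0.367 in non-polysomal RNA. petG was a case below both, with a wild-type total mean of 4.01 ± 2.67, a polysomal mean of 5.64 ± 2.26 and a non-polysomal mean of 8.69 ± 1.38. Its wild-type total signals of replicates 1 and 2, 2.56 and 2.38, lay below the lower quartile of their arrays, so this case rests on dim values. Arrays were scaled separately, so these positions are relative to each array's own transcripts.

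The genotype comparison asked whether loss of GCN2 changed plastid photosynthesis transcripts. In total RNA limma called 0 of the 33 genes at an adjusted p under 0.05, where 0.0352% of all probe sets passed, and 0 at an unadjusted p under 0.05, where 2.49% did. psaA had total signals of 6.76, 9.97 and 11.1 in wild type and 10.2, 8.81 and 11.4 in gcn2, which overlapped, and a difference, gcn2 minus wild type, of 0.87 (95% interval -1.01 to 2.74). psbI differed by -0.73 (-2.31 to 0.85), psaB by 0.44 (-0.82 to 1.71) and psbD by 0.87 (-1.76 to 3.50). The difference of atpE, 0.16 (-0.27 to 0.59), had the narrowest interval among these. The signals of atpE reached the highest signal measured on any array, where a probe set has little room to rise. The median over members was 0.23, and over the alternatives that left out 1 array it ran from -0.75 to 1.26. With array weights it was 1.46, with 32 of 33 differences positive. In that fit 14 members passed at an unadjusted p under 0.05, where 3869 of 22746 probe sets did. At an adjusted p under 0.05 0 members passed, where 43 probe sets did.

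In polysomal RNA limma called 0 members at an adjusted p under 0.05, where 0.022% of all probe sets passed, and 0 at an unadjusted p under 0.05, where 5.39% did. Of the 33 differences 32 were negative with a median of -0.45. The members moved together between arrays, so their signs are not independent of each other, and the median ran from -1.36 to 0.40 when 1 array was left out. psbM was at -0.36 (95% interval -0.93 to 0.22), psbL at -0.71 (-2.91 to 1.48), psaJ at -0.95 (-3.66 to 1.75) and atpB at -0.23 (-0.97 to 0.51). psbJ was at -0.83 (-2.40 to 0.73), with signals of 8.20, 10.1 and 10.2 in wild type and 7.56, 8.91 and 9.52 in gcn2, lower in gcn2 for each replicate number. With the replicate block psbJ fell (SE 0.147, adjusted p = 0.0119), the only member to pass, where 0.264% of all probe sets fell. The adjusted p of psbJ over all fits ran from 0.0119 to 1.00.

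In non-polysomal RNA limma called 0 members at an adjusted p under 0.05, where 0.0791% of all probe sets passed, and 0 at an unadjusted p under 0.05, where 11.4% did, and the median difference was 0.05. psaJ was at -1.31 (95% interval -4.01 to 1.40), atpB at 0.30 (-0.45 to 1.04), psbM at 0.21 (-0.37 to 0.78) and petD at 0.46 (-1.08 to 2.00). psbK, a small core subunit of photosystem II, was at -0.68 (-2.63 to 1.28). Its signals were 8.96, 10.6 and 10.6 in wild type and 8.13, 10.1 and 9.88 in gcn2. With the block psbK fell (SE 0.160, adjusted p = 0.0418), where 1.05% of all probe sets fell, and its adjusted p over all fits ran from 0.0418 to 1.00.

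Whether the loading itself differed between the genotypes was tested as an interaction. limma called 0 members, with or without the block, where 0.0044% of all probe sets passed without and 0.0132% with it. At an unadjusted p under 0.05, 0 members passed without the block, where 5.06% of all probe sets did, and 3 with it, where 8.96% did. The difference, gcn2 loading minus wild-type loading, was negative for 30 of 33 members with a median of -0.40, and for 35 of the 36 other plastid genes with a median of -0.57. The median of the members ran from -1.30 to 0.51 when 1 array was left out, so its sign rests on single arrays. psbM was at -0.56 (95% interval -1.38 to 0.26), atpB at -0.52 (-1.57 to 0.53), psbJ at -0.87 (-3.09 to 1.35), psbZ at -0.57 (-2.48 to 1.33) and psbD at -1.04 (-4.76 to 2.67). The intervals of psbM and atpB reach down to -1.38 and -1.57 and those of psbJ, psbZ and psbD to -2.48 or lower, so these data do not show that gcn2 and wild type loaded these transcripts alike. A gene that fell in one genotype only, such as psbB, psbT, atpE and psaB with the block in gcn2, is accordingly not shown to differ between them.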

How the data were processed

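The authors deposited 1 table of log2 signals for 22810 probe sets on 18 arrays; per the submitters' processing notes, which give no version, RMA, the R package affy and MAS5 were used, with no roles stated. Labelling followed the standard Affymetrix protocol, per the labels' protocols (the sources used here do not name the primer). How far priming and labelling shaped the signals of plastid RNAs was not tested. Differences in these signals between arrays, fractions or genes may therefore not be differences in transcript amount alone. The number of arrays limits the precision, and no array pair was identical (0 of 153).

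After 64 control probe sets were left out, all 22746 others were fitted with limma 3.58.1 in R 4.3.3 on the log2 values as deposited, as 6 group means with 12 residual degrees of freedom. Contrasts were polysomal minus non-polysomal RNA within a genotype, gcn2 minus wild type within an RNA type, and their interaction; p-values were adjusted by Benjamini-Hochberg over all probe sets, with a threshold of 0.05. With 3 arrays against 3, an exact permutation test of 1 gene cannot go below 0.1, so none was used. The labels number replicates 1 to 3 in each group; same-numbered fraction arrays deviated together (correlations of 0.184 to 0.588 in all 6 pairs of fraction groups), so the number was taken to pair them and entered as a block over 12 arrays. The fit without the block was tested on simulated data with independent noise for each probe set and array. That simulation held no shift shared by the plastid genes and did not test the blocked fit.

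Probe sets were named through GEO's platform annotation and the RefSeq gene table, which matched 13436 probe sets to 1 gene each; gene length and order come from that table, and no coordinates are given because the deposited values name no build. The named genes are the members past the threshold, or else the 5 with the smallest p, the 3 highest and 3 lowest by mean level and the 2 largest statistics per complex; other members are given by their loading. atpE, psbM and atpB had the highest mean signals and petD, atpI and psbT the lowest. All 33 members had mean signals above the lower quartile of all probe sets, 3.38. The members, lists and tests were chosen with earlier results of these data known. The alternatives were the replicate block, other samples in the fit, other scalings, a filter on dim probe sets, other variance priors, array weights and leaving out each array.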

Additional observations from a re-analysis of the deposited data

How the results depend on the processing

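The count of members that passed depended on how the plastid-wide differences between arrays were handled. Without the block 2 of 33 passed in wild-type loading and 3 in gcn2 loading, where 28.5% of all probe sets passed in each. With the replicate block they were 24 and 26 on the 12 fraction arrays, and 13 and 18 on all 18 arrays. Of all 22746 probe sets, 8381 and 8180 passed on the 12 arrays and 7415 and 7244 on the 18. With only the arrays compared 5 and 5 members passed, where 6408 and 5630 of all probe sets did. After centring on the BioB and BioC controls 7 and 8 members passed, where 13232 and 11766 of all did. With a trended and robust prior 1 and 1 passed, where 6525 and 6453 of all did. After centring on the plastid genes the member counts were 0 and 0 (at an unadjusted p under 0.05 also 0 and 0). That scale puts the spread of the plastid genes on every probe set: 0 of all 22746 passed, and 75 and 230 at an unadjusted p. No loss under it is therefore particular to a member. The adjusted p values of 0.876 in wild type and 0.658 in gcn2 that end several ranges above come from it. With the replicate block in addition 12 and 12 members passed, where 5162 and 17437 of all probe sets did. With the covariate of other plastid genes 14 and 14 passed, where 6803 and 6538 did. Both alternatives were chosen after seeing the data. In wild type quantile normalization left 1 member, and in gcn2 array weights and the removal of dim probe sets gave 5 and 5. Of all probe sets 6523, 6285 and 6428 passed in these fits, the last of 17059 tested. The wild-type median loading moved from -1.01 to -0.24 with control centring and to -0.12 with plastid centring, with or without the block, and with the covariate. The gcn2 median moved from -1.45 to -0.19 with plastid centring and to 0.077 with the covariate. The 33 members are part of the 69 plastid genes used for plastid centring, so their medians near zero there are largely built in. For the difference between genotypes in polysomal and in non-polysomal RNA the replicate block gave 1 member call each, where 127 and 429 of all probe sets passed. It changed no other call of a member between genotypes.

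Leaving out 1 array gave 0 to 4 member calls in wild-type loading, where 5014 to 5918 of all probe sets passed. In gcn2 loading it gave 1 to 8, where 5359 to 5964 passed, and in the other comparisons 0. The medians ran from -1.84 to -0.076, -2.63 to -0.42, -1.30 to 0.51 (interaction), -0.75 to 1.26 (total), -1.36 to 0.40 (polysomal) and -0.76 to 0.71 (non-polysomal). In wild type psbM was lost with control centring (adjusted p = 0.524), plastid centring (0.978, and 0.897 with the block), array weights (0.05005) and without polysomal replicate 1 (0.0929). psbN was lost with quantile normalization (0.0515), plastid centring (0.876), the trended prior (0.111) and without polysomal replicate 1 (0.199) or 2 (0.0862) or non-polysomal replicate 2 (0.0801) or 3 (0.190). In gcn2 petL was lost with plastid centring (0.658), the trended prior (0.0658) and without polysomal replicate 1 (0.102) or 2 (0.0641) or non-polysomal replicate 2 (0.0762) or 3 (0.0726), and psbJ with plastid centring (0.658), the trended prior (0.0765) and without polysomal replicate 1 (0.131) or non-polysomal replicate 2 (0.0970) or 3 (0.0896), whereas psbM in gcn2 was lost only under plastid centring (0.881, and 0.593 with the block). The gcn2 median changed sign with the covariate, and the medians of the interaction and the 3 comparisons between genotypes changed sign when 1 array was left out. The choice between several probe sets of a gene did not arise and was not run, as each plastid gene had 1. The gcn2 total arrays did not deviate together with the fraction arrays of the same number, so the blocked fit on all 18 arrays treats them as paired without support from the data. The wild-type total arrays did so only in part, with correlations from 0.00117 to 0.404. Signals near the top of the range, as for atpE, psbM and psbA, and near the background on several arrays, as for petG, petD and psbT, limit the size of difference that these probe sets can show.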
